A study of Homo sapiens with 8 samples.

Results

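The 36 genes described here carry glucose from uptake to lactate: glucose transporters, hexokinases, the enzymes of upper and lower glycolysis, the PFKFB regulators, lactate dehydrogenases and monocarboxylate transporters, pyruvate dehydrogenase with its kinases, and 3 genes of glycogen and glucose-1-phosphate. They were taken by symbol from the 54261 rows of a gene count table, and all 36 were found. The table held 8 libraries of rRNA-depleted total RNA, each from a different line and condition. DLD1, HCT116 and HCT8, colorectal cancer (CRC) lines, were sequenced untreated and after hypoxia treatment, and NCM460 and HIEC6, labelled as normal intestinal epithelial lines, were sequenced untreated only. All cells were at passage 5. The oxygen level and the duration of the hypoxia are not given in the sources used here. Each line and condition was 1 library, so the replicates of a group were different lines. Without the line as a block, a p-value was set against the spread between lines. With the block, it was set against the spread of the hypoxia difference over the lines.

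Total counts lay between 45519306 and 57374239 per library, and the floor of 3 counts came to 0.0523 to 0.0659 CPM (counts scaled to a common library total of 1e6), which covers counting error only. The CRC libraries under hypoxia shared no run label with the untreated ones (0 of 3), so run and treatment cannot be told apart. The library labelled NCM460 correlated with that of HCT116 at r = 0.994 across genes (log2 scale), against 0.924 with HIEC6, the line of its own group. In HIEC6 the epithelial markers EPCAM and CDH1 stood at 0.176 and 3.03 CPM, against at least 198 and 126 CPM in the other 7 libraries, while KRT8 stood at 4290 CPM. The mesenchymal marker VIM stood at 1220 CPM there, against at most 20.6 CPM elsewhere. The other mesenchymal markers were mixed: ZEB1, COL1A1, FN1 and PDGFRB were highest in HIEC6 (16.8, 46.0, 117 and 8.6 CPM), and COL1A2 was lowest (0.458 CPM). THY1, DCN and LUM stood at 0.0353, 0.0705 and 0.335 CPM in HIEC6. Of 6 genes with a known response to low oxygen that were looked at to check the treatment, all were higher on average, 3 were called by edgeR with the line as a block (CA9, EGLN3 and NDRG1) and 6 by DESeq2 with the block. CA9 (carbonic anhydrase 9), with the largest change of the 6, lay between 0.0195 and 0.115 CPM in the untreated CRC lines and between 3.91 and 18.8 CPM under hypoxia, while VEGFA, the vascular growth factor, went from 119, 83.6 and 58.3 CPM in DLD1, HCT116 and HCT8 to 135, 237 and 208 CPM. As the samples were bulk RNA, fewer cells that express a gene and less of its RNA per cell cannot be told apart.

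Glycolysis splits glucose into pyruvate in the cytosol. Lactate dehydrogenase turns pyruvate into lactate, which leaves the cell through monocarboxylate transporters, and pyruvate dehydrogenase instead passes pyruvate to the mitochondria unless its kinases switch it off. Most steps are carried by isoenzymes from separate genes with different tissue preferences. In low oxygen, hypoxia-inducible factor (HIF) binds short promoter and enhancer motifs and is known to activate many genes of this pathway. Tumor cells, those of the colon included, are known for a high rate of lactate production even with oxygen present.

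Under hypoxia the glycolytic genes took up a larger part of the transcriptome in each CRC line. The 36 genes held 1.59% of all counts in untreated DLD1 and 3.2% under hypoxia, 1.37% and 4.7% in HCT116, and 1.11% and 3.75% in HCT8. With the line as a block in edgeR's quasi-likelihood test, 18 of the 36 genes rose and 0 fell, where 0.741% of the 21045 genes tested were called higher and 0.209% lower, 0.95% in either direction. The median log2 fold change of the 36 was 1.49, against 0.03 for all genes tested. At an unadjusted p under 0.05 the fit held 27 members, 1 of them lower, where it held 3884 of the 21045 genes tested. DESeq2 with the block called 24 members higher, where it called 4.54% of all genes higher, and 0 lower. Without the block the edgeR test called 0 genes and 0 members (606 genes and 23 members at an unadjusted p under 0.05), while DESeq2 called 55 genes and 9 members. A gene is said to have risen below where its Benjamini-Hochberg adjusted p over all 21045 genes was under 0.05 in the edgeR fit with the block.

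The response was shared across lines but uneven in size. In CPM, 27 of the 36 genes were higher under hypoxia in each of the 3 lines, where 16.2% of all genes were, and 3 were lower in each, where 26.4% of all genes were. SLC2A14, at 0 counts in untreated HCT116, was left out of these counts. The 3 hypoxia libraries lay above all 3 untreated ones for 21 members, against 3.06% of all genes, and below them for 1, PDHA1, against 6.44%. Over the members the median log2 difference was 0.98 for DLD1, 1.36 for HCT116 and 1.64 for HCT8. TMM scaling added 0.03, 0.36 and 0.01 to every gene in these lines (the median of all genes in CPM was -0.34 in HCT116), and under it 27 members were again higher in each line and 22 had groups apart. The level was over 2-fold higher for 17 members in DLD1, 20 in HCT116 and 25 in HCT8, where 11.6%, 11.5% and 14.0% of all genes passed that size. Of the 18 genes that rose, 14 had their smallest difference in DLD1. Without the HCT8 pair the blocked test called 2 members, ALDOC and PFKFB4, where it called 0.0304% of all genes. It called 20 members without DLD1 and 24 without HCT116, where it called 1.47% and 3.78% of all genes. The summed level of mesenchymal markers was 11.3 to 42.7 CPM in the untreated CRC lines and 25.3 to 170.0 CPM under hypoxia, with THY1 and DCN at 0 in untreated DLD1 and in HCT8 under hypoxia and LUM at 0 in untreated HCT8. Of the 8 tested, 1 was called higher (FN1) and 5 had an unadjusted p under 0.05, where 3884 of all 21045 genes did. DESeq2 with the block called 4 higher (COL1A1, COL1A2, FN1 and PDGFRB), and the part of these markers in the results was not tested.

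**Figure D1:**
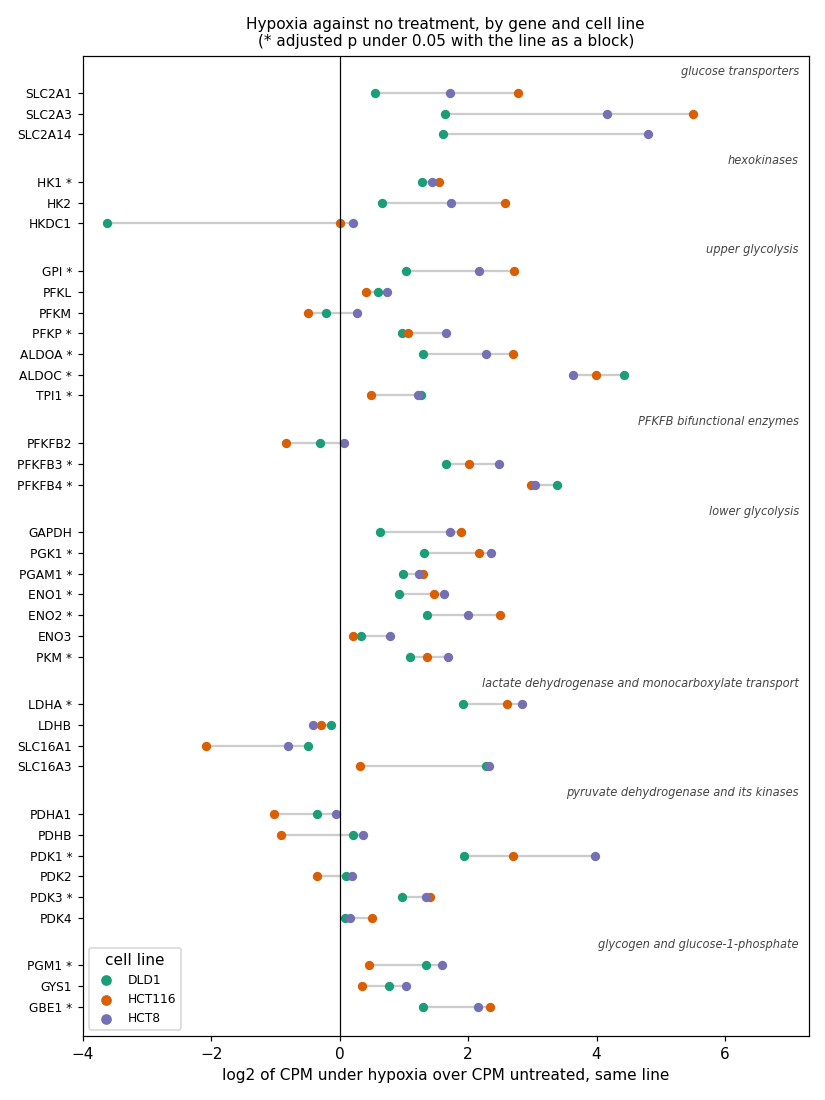
The plot shows, for each of the 36 genes in order of its role, the log2 ratio of CPM under hypoxia to CPM without treatment (horizontal axis) in DLD1, HCT116 and HCT8 (points, 1 library per condition, joined by a grey line), with a star for an adjusted p under 0.05 with the line as a block. Points to the right of 0 in all 3 lines are seen for 27 genes, and ALDOC, at 4.43, 3.99 and 3.63, lies farthest right among those with a star. SLC2A14 has no point in HCT116, where its untreated count was 0.

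Glucose enters through facilitative transporters. SLC2A1 (GLUT1), the widespread basal carrier, stood at 616 CPM in DLD1, 152 in HCT116 and 458 in HCT8 without treatment and at 907, 1040 and 1510 CPM under hypoxia. SLC2A3 (GLUT3), a carrier with a high affinity for glucose known from neurons, stood at 79.3, 10.5 and 13.7 CPM untreated and at 247, 478 and 244 CPM under hypoxia. For both carriers the 3 hypoxia libraries lay above all 3 untreated ones, and the lines differed in the size of the step: SLC2A3 was 3.12-fold higher in DLD1, 17.9-fold in HCT8 and 45.3-fold in HCT116. Neither passed the test with the block (SLC2A1, log2 fold change 1.81 ± 0.43 SE, adjusted p = 0.0941; SLC2A3, 3.94 ± 0.74 SE, adjusted p = 0.0583, n = 3 lines in edgeR's fit), though both did in DESeq2 with the block. Without the DLD1 pair, and also without the HCT116 pair, the edgeR test called both, but neither was called without the HCT8 pair. The settings with these calls also called more of all genes, 1.47% and 3.78% against 0.95%. DLD1 was the untreated line with the highest level of both and the smallest step. SLC2A14 (GLUT14), a close copy of SLC2A3, had 5, 0 and 2 counts untreated and 17, 21 and 48 counts under hypoxia, and since 26.7% of the 50-base stretches of its main transcript also occur in SLC2A3, reads of the pair may have been assigned to either. Rows of SLC2A3 pseudogenes summed to between 1.8% and 481% of the SLC2A3 count and exceeded it in 4 untreated libraries (all but DLD1). They differed by 0.39, -0.44 and 0.33 on the log2 scale in DLD1, HCT116 and HCT8, where SLC2A3 differed by 1.64, 5.50 and 4.16.

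Hexokinases trap glucose as glucose-6-phosphate. HK1, the housekeeping form, rose from 99.1 CPM in DLD1, 143 in HCT116 and 101 in HCT8 to 241, 420 and 273 CPM, a log2 fold change of 1.56 ± 0.19 SE (adjusted p = 0.0169, n = 3 lines). The groups did not overlap, and the differences within the lines were 1.28, 1.55 and 1.44. HK2, the inducible form often raised in tumors, went from 217, 102 and 141 CPM to 344, 608 and 470 CPM, also without overlap, with steps between 1.58-fold in DLD1 and 5.97-fold in HCT116. Its log2 fold change was 1.79 ± 0.38 SE (adjusted p = 0.0779). It was called without the DLD1 pair and without the HCT116 pair, but not without the HCT8 pair. The settings with a call also called more of all genes, 1.47% and 3.78% against 0.95%. The ratio of HK2 to HK1 moved by -0.62 in DLD1, 1.03 in HCT116 and 0.30 in HCT8 on the log2 scale, so neither form gained on the other in all 3 lines. HKDC1, a further hexokinase-domain protein, was at most 4.96 CPM in the 6 CRC libraries. It had 11 counts in untreated DLD1 and 1 under hypoxia, 259 and 275 in HCT116, and 17 and 17 in HCT8, and the groups overlapped.

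In upper glycolysis, GPI, ALDOA, ALDOC, PFKP and TPI1 rose (5 of 7 genes), and PFKL and PFKM did not pass. GPI, which converts glucose-6-phosphate to fructose-6-phosphate, went from 443, 496 and 406 CPM to 905, 3270 and 1830 CPM (log2 fold change 2.11 ± 0.35 SE, adjusted p = 0.042). Untreated levels were within a narrow band, and the hypoxia levels spread over the lines, HCT116 highest. TPI1, triose phosphate isomerase, went from 893, 733 and 662 CPM to 2140, 1020 and 1540 CPM (1.12 ± 0.18 SE, adjusted p = 0.0379), and here HCT116 moved least, by 1.4-fold.

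Phosphofructokinase-1, the committed step, is built from the platelet (PFKP), liver (PFKL) and muscle (PFKM) subunits, and only the platelet form passed the test. PFKP rose from 207 CPM in DLD1, 349 in HCT116 and 159 in HCT8 to 404, 727 and 500 CPM, by 1.36 ± 0.19 SE on the log2 scale (adjusted p = 0.0253). PFKL went from 186, 174 and 173 CPM to 280, 231 and 289 CPM, without overlap and with 0.71 ± 0.17 SE (adjusted p = 0.0903). PFKM went from 103, 202 and 114 CPM to 89.5, 143 and 137 CPM, with overlapping groups, a lower level in DLD1 and HCT116 and a higher one in HCT8. The ratio of PFKP to PFKM therefore grew in each line, by 1.17, 1.56 and 1.39 on the log2 scale (mean 1.37, SD 0.19, n = 3 lines). The exact paired test over 3 lines cannot give a two-sided p under 0.25. Part of the PFKM exons (7.12%) overlaps SENP1 on the other strand, and whether counting used strand is not given in the sources used here.

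Aldolase cleaves fructose-1,6-bisphosphate, and its form C had the largest log2 fold change among the genes that rose. ALDOC, known from brain, stood at 0.879 CPM in DLD1, 31.5 in HCT116 and 90.6 in HCT8 without treatment and rose to 19, 500 and 1120 CPM. The untreated level differed 103-fold between lines, so the groups overlapped, yet the step was 21.6-fold, 15.9-fold and 12.4-fold, a log2 fold change of 4.13 ± 0.24 SE (edgeR with the block, adjusted p = 0.00081). ALDOA, the muscle and ubiquitous form, rose from 1020, 896 and 733 CPM to 2490, 5840 and 3570 CPM (2.23 ± 0.32 SE, adjusted p = 0.0253) without overlap. Nearly all of the ALDOA transcript (89.5% of its 50-base stretches) also lies in an annotated readthrough gene that has no row in the table. The ratio of ALDOC to ALDOA grew by 3.14, 1.28 and 1.35 on the log2 scale.

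The PFKFB enzymes make and break fructose-2,6-bisphosphate, the activator of phosphofructokinase-1. PFKFB4 rose from 11 CPM in DLD1, 21.4 in HCT116 and 31.9 in HCT8 to 115, 168 and 263 CPM, with steps of 10.4-fold, 7.85-fold and 8.24-fold (log2 fold change 3.26 ± 0.19 SE, adjusted p = 0.00081). PFKFB3, the form with the strongest kinase activity, rose from 49.6, 76 and 53.7 CPM to 157, 307 and 301 CPM (2.19 ± 0.21 SE, adjusted p = 0.00655). Neither gene's groups overlapped, and the steps of PFKFB3 lay between 3.16-fold in DLD1 and 5.6-fold in HCT8. PFKFB2, known from heart, went from 49.9, 29.3 and 87.6 CPM to 40.4, 16.4 and 91.5 CPM, with overlapping groups and -0.22 ± 0.19 SE (adjusted p = 0.577). The ratio of PFKFB4 to PFKFB2 grew by 3.68, 3.81 and 2.98 on the log2 scale, and that of PFKFB4 to PFKFB3 by 1.72, 0.96 and 0.56.

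**Figure D2:**
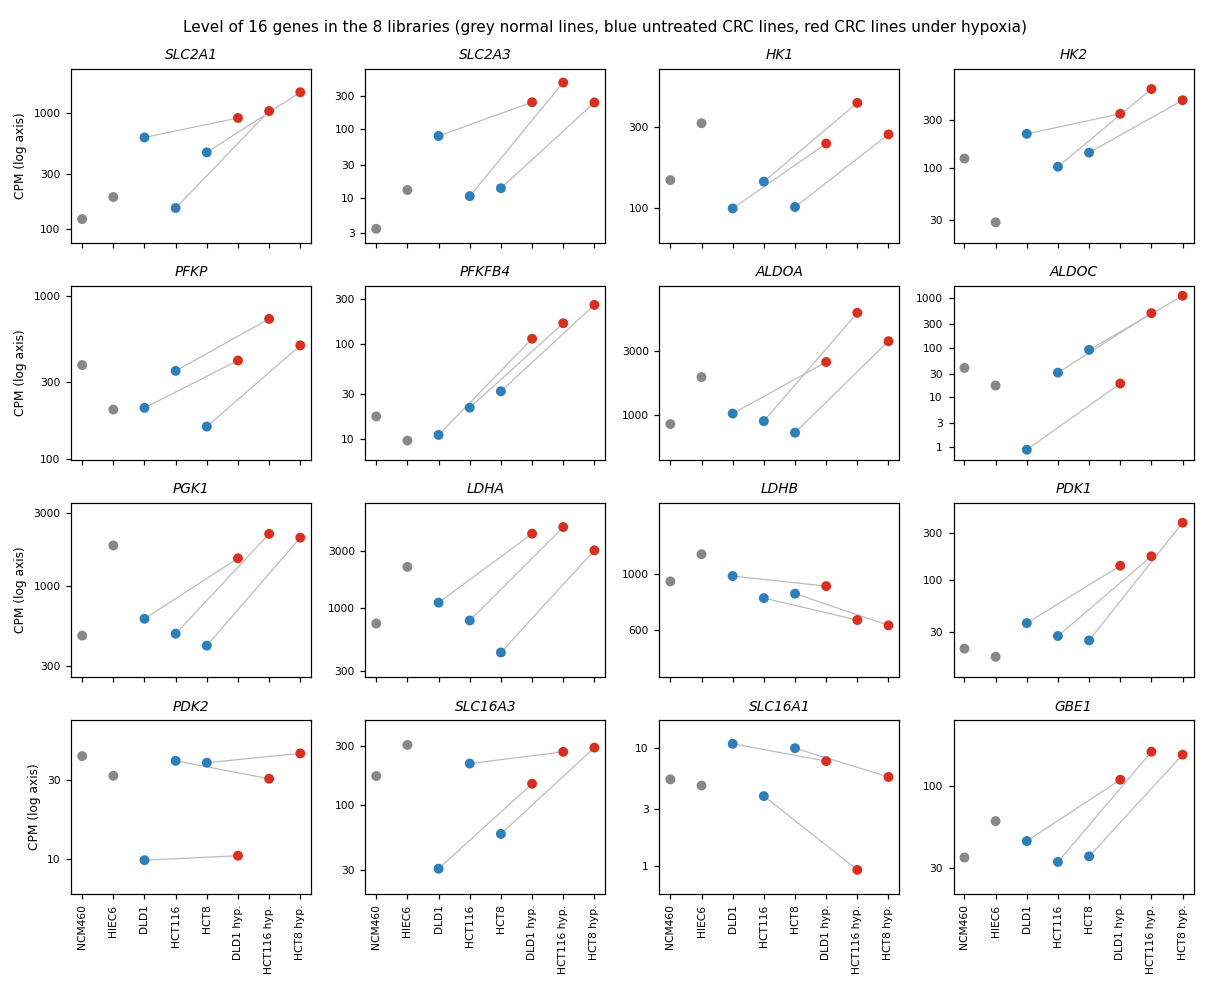
The panels give the level in CPM (vertical log axis) of 16 genes in the 8 libraries, with normal lines in grey, untreated CRC lines in blue and CRC lines under hypoxia in red (1 library per point, grey lines join the libraries of a line). For LDHA the red points, between 3040 and 4760 CPM, lie above all others, while for LDHB the red points lie between 627 and 897 CPM and overlap the blue ones.

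In lower glycolysis, 5 of 7 genes rose and GAPDH and ENO3 did not pass. PGK1, phosphoglycerate kinase, which makes the first ATP of the pathway, rose from 607 CPM in DLD1, 485 in HCT116 and 405 in HCT8 to 1510, 2180 and 2060 CPM (log2 fold change 2.08 ± 0.26 SE, adjusted p = 0.0169). PKM, pyruvate kinase, rose from 3020, 2290 and 1680 CPM to 6470, 5870 and 5370 CPM (1.51 ± 0.20 SE, adjusted p = 0.0198). Both were higher in all hypoxia libraries than in any untreated CRC library, and the hypoxia levels of the lines lay closer together than the untreated ones for PKM. PGAM1, phosphoglycerate mutase, rose from 127, 90.3 and 111 CPM to 252, 221 and 263 CPM (1.31 ± 0.19 SE, adjusted p = 0.027), though 56.8% of its transcript is shared with other genes.

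ENO1, the ubiquitous enolase, rose from 1800, 1940 and 1310 CPM to 3430, 5350 and 4040 CPM (log2 fold change 1.47 ± 0.22 SE, adjusted p = 0.0278). ENO2, the enolase of neurons, rose from 15.3, 69.9 and 59.3 CPM to 39.4, 396 and 236 CPM (2.09 ± 0.28 SE, adjusted p = 0.0207). Its groups overlapped because DLD1 under hypoxia stayed below the untreated HCT116 and HCT8, yet the step within DLD1 was 2.57-fold. ENO3, the muscle form, was 3.87, 6.53 and 5.13 CPM untreated and 4.85, 7.56 and 8.83 CPM under hypoxia (0.58 ± 0.28 SE, adjusted p = 0.325). GAPDH, a glycolytic dehydrogenase that is often used as a reference gene, stood at 3750, 3140 and 2400 CPM untreated and at 5790, 11700 and 7900 CPM under hypoxia. Its groups did not overlap and the steps were 1.54-fold, 3.72-fold and 3.3-fold, with 1.55 ± 0.30 SE on the log2 scale (adjusted p = 0.0622). The edgeR test with the block called GAPDH without the DLD1 pair and without the HCT116 pair, but not without the HCT8 pair. Those 2 settings with a call also called more of all genes, 292 and 738 against 200. DESeq2 with the block did not call GAPDH. By comparison 0 of the 10 reference genes tested (ACTB, PPIA and others) were called, the largest log2 fold change being 0.81 for TFRC. Of these, 2 had an unadjusted p under 0.05, where 3884 of all 21045 genes did, and DESeq2 with the block called 0.

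The lactate dehydrogenase genes shifted towards LDHA in each line. LDHA encodes the subunit that favours the making of lactate, and LDHB the subunit that favours its use. LDHA rose from 1110 CPM in DLD1, 787 in HCT116 and 425 in HCT8 to 4190, 4760 and 3040 CPM, steps of 3.77-fold, 6.05-fold and 7.14-fold (log2 fold change 2.59 ± 0.25 SE, adjusted p = 0.00607). LDHB stood at 983, 804 and 837 CPM untreated and at 897, 658 and 627 CPM under hypoxia, with overlapping groups and -0.14 ± 0.18 SE (adjusted p = 0.717). In CPM it was lower in each line, but after TMM scaling the difference in HCT116 was 0.07, of the opposite sign. The ratio of LDHA to LDHB, which is free of scaling, grew by 2.05, 2.89 and 3.25 on the log2 scale (mean 2.73, SD 0.62, n = 3 lines).

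Per kilobase of exon, LDHA made up 35.9% of the lactate dehydrogenase transcripts in untreated DLD1, 32.6% in HCT116 and 20.1% in HCT8, and 69.8%, 78.2% and 70.6% under hypoxia. LDHA led in all 3 hypoxia libraries under every length definition tried. In untreated DLD1 the leader was LDHB by union exon length, but LDHA by the median transcript length (52.3%) and with no length correction (53.1%). In untreated HCT116 and HCT8 it was LDHB throughout. Reads of LDHA pseudogenes, 0.777% to 1.24% of the LDHA count, moved with it (2.23, 2.75 and 3.0 on the log2 scale). Much of the LDHB transcript (71.7%) also lies in a readthrough gene with no row in the table.

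The promoters of this pair are shown because the isoenzymes parted under hypoxia. The sequences are the 250 bases before the annotated start in RefSeq (GRCh38.p14), in the direction of the gene, at chr11:18394313-18394562 on the plus strand for LDHA and chr12:21657843-21658092 on the minus strand for LDHB. RefSeq lists 2 starts for LDHA, and the window with more matches is shown. Capitals mark ACGTG or GCGTG, the core of the HIF-binding motif, read on either strand, so that CACGT and CACGC are marked too.
LDHA: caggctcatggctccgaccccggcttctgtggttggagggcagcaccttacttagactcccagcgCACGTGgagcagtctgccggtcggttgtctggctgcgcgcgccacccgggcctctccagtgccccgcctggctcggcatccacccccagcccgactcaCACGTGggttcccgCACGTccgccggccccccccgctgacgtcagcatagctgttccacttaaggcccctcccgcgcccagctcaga
LDHB: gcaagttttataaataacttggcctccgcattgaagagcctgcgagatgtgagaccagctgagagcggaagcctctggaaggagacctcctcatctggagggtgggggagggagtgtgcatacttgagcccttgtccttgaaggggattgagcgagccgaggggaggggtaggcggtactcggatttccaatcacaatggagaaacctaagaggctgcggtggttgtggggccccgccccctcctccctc
The LDHA window held 5 matches, where the palindrome CACGTG counts once per strand, the window of its other start held 1, and the LDHB window held 0. A match is a run of letters and not a measured binding site.

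Of the lactate carriers, SLC16A3 (MCT4), the export form, stood at 30.6 CPM in DLD1, 217 in HCT116 and 58.5 in HCT8 untreated and at 149, 270 and 292 CPM under hypoxia. The groups overlapped because untreated HCT116 was already above DLD1 under hypoxia, and the steps were 4.87-fold, 1.24-fold and 5-fold (log2 fold change 1.79 ± 0.34 SE, adjusted p = 0.0583). It was called without the HCT116 pair, where 3.78% of all genes were called against 0.95%, but not without the HCT8 pair. SLC16A1 (MCT1), which carries lactate both ways, was 10.8, 3.89 and 9.91 CPM untreated and 7.7, 0.921 and 5.65 CPM under hypoxia, lower in each line with overlapping groups (-0.97 ± 0.34 SE, adjusted p = 0.189). The ratio of SLC16A3 to SLC16A1 grew by 2.77, 2.39 and 3.13 on the log2 scale (mean 2.77, SD 0.37, n = 3 lines), and SLC16A3 held 92.9% to 97.2% of the carrier transcripts per kilobase under hypoxia.

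At the mitochondrial entry point, PDK1 and PDK3, kinases that switch pyruvate dehydrogenase off, rose, while the subunits of the enzyme itself were not called. PDK1 rose from 36.8 CPM in DLD1, 27.2 in HCT116 and 24.5 in HCT8 to 141, 176 and 386 CPM, steps of 3.84-fold, 6.46-fold and 15.7-fold (log2 fold change 3.0 ± 0.36 SE, adjusted p = 0.0163). PDK3 rose from 46, 36.8 and 137 CPM to 90.2, 97.3 and 351 CPM (1.38 ± 0.20 SE, adjusted p = 0.027). PDK1 groups did not overlap, whereas those of PDK3 did, since untreated HCT8 exceeded hypoxic DLD1 and HCT116.

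PDK2, the widespread kinase, was 9.86, 39.4 and 38.4 CPM untreated and 10.5, 30.7 and 43.7 CPM under hypoxia (log2 fold change 0.11 ± 0.19 SE, adjusted p = 0.803), and 38.6% of its exon length overlaps SAMD14 on the other strand. PDK4, known from fasting, was 0.937, 3.01 and 3.95 CPM untreated and 0.993, 4.28 and 4.42 CPM under hypoxia (0.39 ± 0.37 SE, adjusted p = 0.614). Both had overlapping groups. The ratio of PDK1 to PDK2 grew by 1.84, 3.05 and 3.79 on the log2 scale, and that of PDK1 to PDK3 by 0.97, 1.29 and 2.62. PDHA1, the catalytic alpha subunit, was 109, 85.5 and 87.8 CPM untreated and 84.8, 41.8 and 84.1 CPM under hypoxia (-0.35 ± 0.19 SE, adjusted p = 0.369). Its groups parted in CPM but overlapped after TMM scaling, and 19.3% of its exon length overlaps MAP3K15 on the other strand. PDHB, the beta subunit, was 39.8, 43.4 and 58.4 CPM untreated and 45.7, 23 and 74.8 CPM under hypoxia (0.02 ± 0.23 SE, adjusted p = 0.976).

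The promoters of PDK1 and PDK2 are shown as a second pair with unequal responses, for the annotated start of each gene with the most matches. The windows lie at chr2:172555840-172556089 and chr17:50095101-50095350, both on the plus strand, with capitals as above.
PDK1: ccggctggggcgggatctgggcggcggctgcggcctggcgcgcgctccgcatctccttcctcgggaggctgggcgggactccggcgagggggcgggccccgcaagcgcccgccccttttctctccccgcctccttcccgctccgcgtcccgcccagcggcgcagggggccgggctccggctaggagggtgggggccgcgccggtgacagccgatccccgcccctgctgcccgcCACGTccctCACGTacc
PDK2: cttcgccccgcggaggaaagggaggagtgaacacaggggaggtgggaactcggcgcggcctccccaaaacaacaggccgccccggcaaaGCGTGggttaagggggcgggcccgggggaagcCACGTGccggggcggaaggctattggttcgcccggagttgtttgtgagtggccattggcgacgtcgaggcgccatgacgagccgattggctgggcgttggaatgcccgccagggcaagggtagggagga
The PDK1 window held 2 matches, 8 and 17 bases before the start, and the PDK2 window held 3, although PDK2 was not called. The other annotated starts, 1 of PDK1 and 2 of PDK2, had 0 matches.

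On the glycogen side, PGM1, which links glucose-1-phosphate to glucose-6-phosphate, rose from 89.4 CPM in DLD1, 112 in HCT116 and 55.6 in HCT8 to 227, 154 and 168 CPM (log2 fold change 1.27 ± 0.20 SE, adjusted p = 0.0369). GBE1, the glycogen branching enzyme, rose from 44.7, 32.9 and 35.7 CPM to 110, 166 and 159 CPM (2.07 ± 0.27 SE, adjusted p = 0.0192). In neither case did the groups overlap, and the smallest step of PGM1 was 1.38-fold, in HCT116. GYS1, glycogen synthase, was 91.9, 75.7 and 123 CPM untreated and 156, 96.1 and 251 CPM under hypoxia (0.85 ± 0.17 SE, adjusted p = 0.0724), with groups that overlapped in CPM and parted after TMM scaling. It was called without the HCT116 pair, where 3.78% of all genes were called against 0.95%, but not without the HCT8 pair.

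Taking the pathway's promoters together, 27 of the 33 members with a RefSeq window (81.8%) held ACGTG or GCGTG within 250 bases before a start, where 47.4% of 27305 genes did. Those 27305 were all genes with a window, neither limited to expressed genes nor matched for base composition. The shares for ACGTG alone, read on both strands, were 20 of 33 (60.6%) and 21.7%. Counted per window the shares were 54.7% of 64 windows and 43.2% of 35116, since genes with several starts have more windows to match. The motif was in 16 of the 18 genes that rose (88.9%) and in 11 of the 15 others (73.3%), and PGAM1 and PKM rose with no match. The promoters of ALDOC, the gene with the largest step among those that rose, and of PGK1 are shown as examples with several matches. They lie at chr17:28576896-28577145 on the minus strand and chrX:78103998-78104247 on the plus strand.
ALDOC: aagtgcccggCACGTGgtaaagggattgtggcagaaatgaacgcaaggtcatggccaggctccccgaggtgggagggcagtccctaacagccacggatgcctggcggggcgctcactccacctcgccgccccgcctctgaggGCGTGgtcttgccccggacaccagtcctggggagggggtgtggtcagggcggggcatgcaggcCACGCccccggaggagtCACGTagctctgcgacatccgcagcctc
PGK1: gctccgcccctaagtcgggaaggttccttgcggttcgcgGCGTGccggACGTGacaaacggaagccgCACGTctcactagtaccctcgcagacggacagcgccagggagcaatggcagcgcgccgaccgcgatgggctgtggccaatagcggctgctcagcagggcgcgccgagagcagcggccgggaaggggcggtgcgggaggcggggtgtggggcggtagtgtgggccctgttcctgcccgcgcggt
The ALDOC window held 5 matches and the PGK1 window 3, those of PGK1 between 183 and 211 bases before the start.

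The leading isoenzyme of each step was compared per kilobase of union exon length in each library. PGK1, PKM, PGAM1 and GYS1 held at least 98% of their steps in every library, and ALDOA and ENO1 led theirs everywhere. Among the class I glucose carriers (SLC2A1, SLC2A2, SLC2A3, SLC2A4 and SLC2A14), SLC2A1 led in all 8 libraries, and its share went from 89.4% to 80.0% in DLD1, from 91.7% to 70.2% in HCT116 and from 95.2% to 86.4% in HCT8 under hypoxia. Carriers of other classes were not in this sum, the highest of them SLC2A10 at 52.2 CPM in untreated HCT8. The share of ALDOC among aldolases went from 0.127% to 1.11% in DLD1, from 4.9% to 11.1% in HCT116 and from 15.3% to 31.6% in HCT8. PFKP held 43.2%, 48.7% and 36.9% of phosphofructokinase-1 transcripts untreated and 54.3%, 67.2% and 55.7% under hypoxia. By the median transcript length its shares were 34.2%, 35.2% and 27.7% untreated, where PFKM led all 5 untreated libraries, and 48.5%, 57.8% and 47.3% under hypoxia, where PFKP led all 3.

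Among phosphofructokinase-2 genes, PFKFB4 went from 12.0%, 18.2% and 22.6% to 38.7%, 34.5% and 42.1%, and PFKFB2 from 32.7%, 15.0% and 37.2% to 8.18%, 2.03% and 8.8%. PDK1 held 34.8%, 15.5% and 9.49% of the kinase transcripts untreated and 56.6%, 49.4% and 47.2% under hypoxia. The direction of these shares was the same in all 3 lines. The order within a library depended on the length used for phosphofructokinase-1, PDK, hexokinase, PFKFB and lactate dehydrogenase genes, and in HIEC6 for the lactate carriers. PDK1 led under hypoxia by union exons and PDK3 by the canonical transcript, and HK2 led 3 of 3 hypoxia libraries by union exons but 0 of 3 by the median transcript length.

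**Figure D3:**
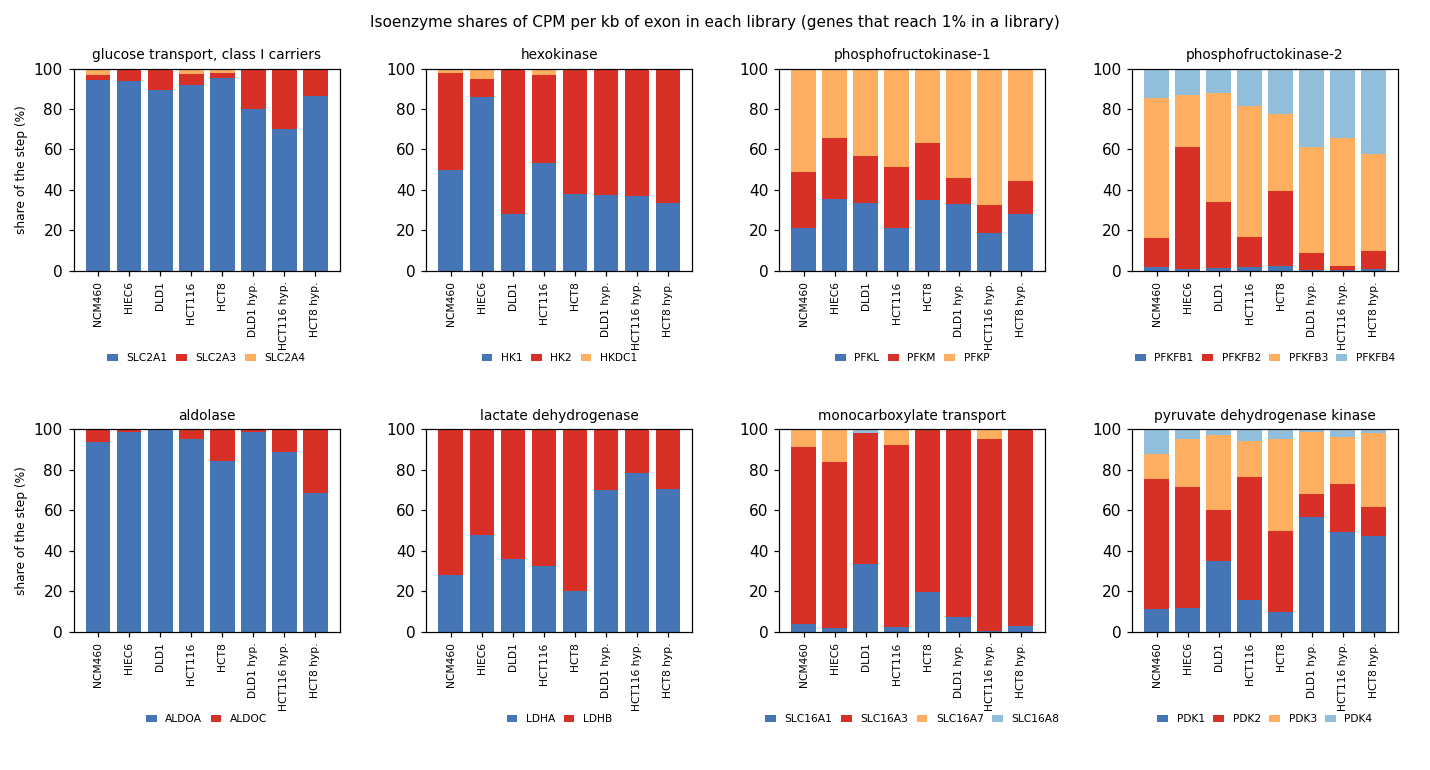
Stacked bars give, for 8 steps, the share of each isoenzyme in the CPM per kilobase of exon summed over the step (vertical axis, percent) in each of the 8 libraries (1 library per bar, genes that reach 1% in a library). In the lactate dehydrogenase panel the LDHA part is at most 47.8% in the 5 untreated libraries and at least 69.8% in the 3 hypoxia libraries.

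The untreated CRC and normal lines form the contrast the series was built on. None of the 35 members tested was called by edgeR, where 0 of 19964 genes were (542 genes and 2 members at an unadjusted p under 0.05), and DESeq2 called 143 genes and 0 members. The log2 fold change of CRC over normal was above 0 for 9 members and below 0 for 26, with a median of -0.51. This rested on HIEC6: without it the signs were 18 and 17 and the median was 0.00. HIEC6, whose markers are given above, lay above the range of the 3 CRC lines for 20 members and below it for 4, where 22.1% and 42.1% of all genes did. The library labelled NCM460 lay above the range for 6 and below it for 6, where 21.0% and 28.2% of all genes did.

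Enzymes of lower glycolysis and lactate production were among the genes above the CRC range in HIEC6. PGK1 was 1830 CPM in HIEC6, 471 in NCM460 and 405 to 607 in the CRC lines. LDHA was 2210 CPM in HIEC6, 742 in NCM460 and 425 to 1110 in the CRC lines. By contrast HK2 was 28.4 CPM in HIEC6, 123 in NCM460 and 102 to 217 in the CRC lines, and HK1 was 318, 146 and 99.1 to 143 CPM. HIEC6 was therefore the library in which HK1 held the largest part of the hexokinase transcripts, 86.0%, against 28.1% to 53.1% in the others. The other genes below the CRC range in HIEC6 were PFKFB3, PFKFB4 and PDK1. SLC2A1 was 122 CPM in NCM460, 189 in HIEC6 and 152 to 616 in the CRC lines, with DLD1 highest and HCT116 between the normal lines.

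Over the members, the library labelled NCM460 and HCT116 differed by a median of 0.22 on the log2 scale, and 31 of 35 genes lay within 1.5-fold. The other pairs of untreated lines differed by medians of 0.45 to 1.08. Among the CRC lines, ALDOC (103-fold between HCT8 and DLD1) had the widest range of the genes that rose. DLD1 had the lowest ALDOC, ENO2, SLC16A3 and PDK2 and the highest SLC2A1, SLC2A3 and HK2. Over all members the CRC lines differed by similar medians: 0.50 for DLD1 and HCT116, 0.55 for DLD1 and HCT8, and 0.45 for HCT116 and HCT8.

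**Figure D4:**
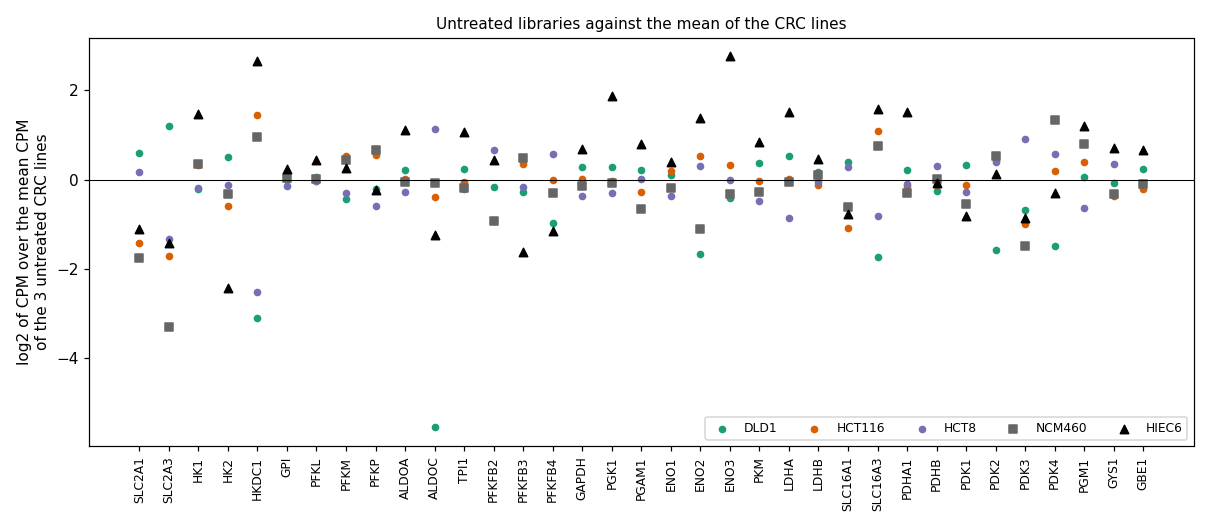
Points give the log2 ratio of CPM in each untreated library to the mean CPM of the 3 untreated CRC lines (vertical axis) for 35 members (horizontal axis), with CRC lines as circles, NCM460 as squares and HIEC6 as triangles, 1 library each. HIEC6 lies above the CRC circles for 20 genes and below them for 4, and DLD1 lies far below the others for ALDOC (0.879 CPM).

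In 7 lists of neighbouring pathways, edgeR with the block called 2 of the 84 genes tested higher and 3 lower under hypoxia, 5.95% in either direction where 0.95% of all genes were called. DESeq2 with the block called 7 higher and 5 lower, 14.3% against 7.92% of all genes (3.38% of all genes lower), among them LDHD, TXNIP, PGM2L1 and PYGL, all higher, which the edgeR fit did not call. Among other isoenzymes and carriers 1 of 19 tested rose, SLC2A12, a glucose transporter (log2 fold change 2.10, adjusted p = 0.021). Among gluconeogenic genes and brakes of glycolysis 1 of 7 fell, PCK2, the mitochondrial PEP carboxykinase, from 270, 140 and 306 CPM to 63.6, 17.8 and 143 CPM (-1.92, adjusted p = 0.0295). In the hexosamine and serine branches 2 of 10 fell, PHGDH and PSPH, the entry and exit enzymes of serine synthesis from 3-phosphoglycerate. PHGDH went from 779, 476 and 699 CPM to 225, 82.9 and 253 CPM (-1.79, adjusted p = 0.0113), and PSPH from 239, 67.4 and 104 CPM to 98.1, 16.2 and 38.6 CPM (-1.45, adjusted p = 0.0169). For PHGDH the groups did not overlap, so that the branch that leaves glycolysis below GAPDH and the trunk that continues to pyruvate had called genes of opposite sign.

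Of 14 other glycogen genes 1 rose, PPP1R3B, which targets a phosphatase to glycogen (1.63, adjusted p = 0.0411). No gene was called among 8 of the pentose phosphate pathway (largest, RPIA, -1.19, adjusted p = 0.0779), 20 of the TCA cycle (FH, -0.61) or 6 partners of pyruvate dehydrogenase (PDPR, 0.40). At an unadjusted p under 0.05 these 3 lists held 1, 4 and 1 genes, where 3884 of all 21045 genes passed. DESeq2 with the block called 1 (RPIA, lower), 2 (FH, lower, and IDH3G, higher) and 0. The median log2 fold change was -0.14 for the TCA cycle and -0.18 for the pentose phosphate pathway, against 1.49 for the 36 members and 0.03 for all genes.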

How the data were processed

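rRNA-depleted total RNA gave 8 libraries (5 untreated lines, 3 CRC lines under hypoxia), and the authors deposited 1 table of raw read counts per gene, with no normalization. The study's methods name GRCh37.p13 as the genome, while the submitters' processing notes name GRCh38 and HISAT2 2.0.4. The counter, its strand setting and its treatment of reads with several matches are not given in the sources used here. The extraction text of the labels names another tissue (cortex), and markers of that tissue summed to 21.9 to 300.0 CPM. MBP stood at 10.8 to 118 CPM and GAD1 at 5.22 to 20.1 CPM. SYT1 stood at 68.8 CPM in NCM460, 128 in HCT116 and 159 in HCT116 under hypoxia, and at most 1.43 CPM elsewhere. RBFOX3, SNAP25, GFAP and SLC17A7 reached at most 0.305, 0.899, 0.095 and 2.44 CPM. All 8 columns were used (0 left aside), with groups, lines and replicate numbers from the sample labels.

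The 36 members, the further gene lists and the tests were chosen with earlier results of these data known. CPM was the count over the column total. Hypoxia was compared with no treatment over the 6 CRC libraries, and CRC with normal lines over the 5 untreated ones, with edgeR 4.0.16 (glmQLFit and glmQLFTest, TMM, Benjamini-Hochberg adjustment over all genes, threshold 0.05) in R 4.3.3. A gene was tested if 2 or more libraries of the fit reached 10 counts. The SE of a log2 fold change was its size over the root of F. The replicate number in the hypoxia comparison is the cell line, which pairs the samples: libraries of 1 line deviated from their group means together (r = 0.822 for DLD1, 0.849 for HCT116, 0.807 for HCT8), those of different lines did not (-0.603 to -0.0564), and both fits are given. Deviations from a group mean cancel out within the group, so negative values between lines follow from positive ones within lines. For CRC against normal lines equal numbers belong to unrelated lines, so there is no pairing.

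Alternatives were DESeq2 1.42.0, limma-trend (limma 3.58.1, pseudocount 1), upper-quartile scaling, column totals, other count filters, libraries left out and other gene lengths. The canonical transcript length for shares and TMM scaling of the differences within lines were added after seeing the data. The fits were tested on simulated data. Isoenzyme shares used union exon lengths from GENCODE release 44 lifted to GRCh37 (186 of 188 listed genes had a length), and shared 50-base stretches and overlaps came from the same annotation. Promoter windows came from RefSeq (GRCh38.p14), and no window was used for PFKFB2, SLC16A1 and SLC2A3. All members are named, and of each other list the called genes or, with none, the gene with the largest fold change.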

Additional observations from a re-analysis of the deposited data

Results flagged for a closer look

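Among the genes whose lines moved in opposite directions under hypoxia, 3 were flagged. PFKM, the muscle subunit of phosphofructokinase-1, had a log2 difference of CPM of 0.267 in HCT8, -0.208 in DLD1 and -0.499 in HCT116. PFKFB2 differed by 0.063 in HCT8, -0.304 in DLD1 and -0.836 in HCT116. PDHB, the beta subunit of pyruvate dehydrogenase, differed by 0.202 in DLD1, 0.358 in HCT8 and -0.913 in HCT116. In CPM HCT116 was lowest in all 3, and its hypoxia library had the smallest TMM factor, 0.771. After TMM scaling HCT116 stayed lowest for PFKFB2 (-0.48) and PDHB (-0.56), while for PFKM it was -0.14 against -0.17 in DLD1. With 1 pair of libraries per line the differences between lines were not tested.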

How the results depend on the processing

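For hypoxia against no treatment the calls depended on the line as a block: 0 genes and 0 members without it in edgeR under every scaling, filter and left-out library, 55 and 9 in DESeq2, and 200 genes and 18 members with the replicate block. With the block, DESeq2 called 1666 genes and 24 members, upper-quartile scaling 215 and 18, column totals 172 and 18, no filter on low counts 1904 and 26, at least 10 counts in every library 165 and 16 (34 members tested), and limma-trend 76 and 12. With the block and without DLD1 it called 292 genes and 20 members, without HCT116 738 and 24, and without HCT8 6 and 2. The median log2 fold change of the members lay between 1.17 and 1.65 with single libraries left out. No paired value bears on CRC against normal lines, where the block on the replicate number joined different lines and called 0 genes. There DESeq2 called 143 genes in place of 0.

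Of the 36 members, 7 had a sign under hypoxia in some setting that differed from edgeR's fit without the block, none of them called. In that fit HKDC1 was 0.30, PFKM -0.033, PDHB 0.082 and PDK2 0.097. PFKFB2 and LDHB were -0.12 there, and PDK4 was 0.49. HKDC1 was -0.037 with column totals, -0.69 in limma-trend with and without the block, -0.32 with the block, and with the block -0.47 in DESeq2, -0.28 with upper-quartile scaling, -0.53 with column totals, -0.35 without a filter, -1.07 without HCT116 and -0.63 without HCT8, with a range of -3.40 to 3.21 over left-out libraries. PFKM was 0.00421 in DESeq2 and 0.016 with upper-quartile scaling, and with the block 0.014 in DESeq2, 0.032 with upper-quartile scaling, 0.011 with the stricter filter, 0.071 without DLD1 and 0.035 without HCT116 (range -0.38 to 0.40). PDHB with the block was -0.11 with column totals, -0.00703 without a filter, -0.089 without DLD1 and -0.16 without HCT8 (range -0.25 to 0.31). PDK2 was -0.046 with column totals and -0.026 with the block as well (range -0.31 to 0.50). Left-out libraries also turned PFKFB2 (-0.76 to 0.29), LDHB (-0.25 to 0.061) and PDK4 (-0.031 to 0.93). For CRC against normal lines, ALDOC was -1.12 in limma-trend and -2.42 with the replicate block (range -0.88 to 0.92), PFKFB2 0.092 with column totals (-0.73 to 0.78) and PDHB 0.029 with column totals. Left-out libraries, mostly HIEC6, turned ENO1 (-0.64 to 0.087), ENO2 (-1.64 to 0.998), ENO3 (-3.02 to 0.22), GAPDH (-0.95 to 0.060), GBE1 (-0.93 to 0.00378), GYS1 (-0.98 to 0.19), PDHA1 (-1.77 to 0.19), PDK4 (-1.46 to 0.022), PFKFB3 (-0.58 to 1.37), PGAM1 (-1.06 to 0.56), PKM (-1.10 to 0.18) and TPI1 (-1.32 to 0.097). The cause of these changes was not tested. The leading isoenzyme was the same in 83 to 104 of 104 pairs of step and library under the other lengths and with pseudogene reads added. This count includes steps that could hardly change, such as those where PGK1, PKM, PGAM1 or GYS1 held nearly all transcripts. SLC2A1, ALDOA and ENO1 also led under every setting. All changes lay in the hexokinase, phosphofructokinase-1, phosphofructokinase-2, lactate dehydrogenase, monocarboxylate transport and PDK steps. Of the other values for single members, 563 under hypoxia and 399 for CRC against normal lines kept sign and side of the threshold, and 187 under hypoxia passed it. These values were set against edgeR's fits without a block, which called 0 members, so no call could be lost. They do not measure how stable the calls of the fit with the block were. Depth limits SLC2A14 and HKDC1, which had few counts.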

Other observations

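Rows of processed pseudogenes, which are copies of spliced transcripts, moved with some parent genes and not with others. TPI1 pseudogenes, 1.98% to 3.16% of the TPI1 count, differed under hypoxia by 1.19 in DLD1, 0.32 in HCT116 and 1.24 in HCT8 on the log2 scale, where TPI1 itself differed by 1.26, 0.48 and 1.21. GAPDH had 64 such rows, 30 of them with counts, which summed to 0.317% to 1.57% of the GAPDH count and differed by 0.50, 1.80 and 0.78. PGAM1 pseudogenes (13 rows, 0.631% to 2.53% of the PGAM1 count) differed by 0.12, 0.57 and 0.15, where PGAM1 differed by 0.99, 1.30 and 1.24. How reads with several matches were counted is not given in the sources used here.

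TXNIP, an inhibitor of glucose uptake, differed widely between lines and was higher under hypoxia in each of the 3. It stood at 118 CPM in DLD1, 0.172 in HCT116 and 254 in HCT8 untreated, and at 184, 0.794 and 852 CPM under hypoxia. The library labelled NCM460 had 0.854 CPM and HIEC6 10.1 CPM. The log2 fold change with the block was 1.46 ± 0.31 SE (edgeR's quasi-likelihood test, adjusted p = 0.0776), while DESeq2 with the block called it higher, and TXNIP was named after its values were seen.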
